A study of Mus musculus with 12 samples.

Results

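The acute-phase genes Saa1, Saa2, Saa3, Lcn2, Ptx3, C3, Hp, Orm1, Cfb and Cp were followed across 12 cultures of mouse embryonic fibroblasts. The list was chosen by the log2 signals of these same arrays, since Saa3, Lcn2 and Ptx3 were among the genes that varied most between cultures of one genotype, so that spread is described here and not tested. A gene was represented by the probe set annotated with its symbol alone, which gave 9 of the 10 listed genes, among 19938 genes measured this way on 28853 probe sets. C3, the central protein of the complement cascade, was not analysed here.

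The study compared telomerase knockouts with their wild types, 3 cultures a group, on Affymetrix arrays. The groups were fibroblasts of mTERT KO embryos, which lack the reverse transcriptase of telomerase, mTERT WT fibroblasts, fibroblasts of mTR KO embryos, which lack the telomerase RNA, and mTR WT fibroblasts. All embryos were male C57BL/6J taken between E12.5 and E14.5, the knockouts were of the first generation (G1), and RNA was made at passage 5 from untreated cells kept in DMEM with 10% FBS. Knockout and wild-type embryos of a set were littermates, 3 sets in all. The labels do not state whether a culture came from 1 embryo, and p-values measure only the spread between these cultures. Values are log2 signals, so a difference of 1 is a factor of 2.

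Acute-phase proteins are secreted when interleukin-1, interleukin-6 or tumour necrosis factor reaches a cell, through the transcription factors NF-kB, STAT3 and the C/EBP family. The liver is their main source, but fibroblasts and macrophages make some of them where tissue is inflamed. Serum amyloid A1 and A2 are the liver forms in mice, while Saa3 is the form made outside the liver. Lcn2 (lipocalin 2) binds bacterial siderophores and so withholds iron, and Ptx3 is a soluble pattern recognition protein of the pentraxin family.

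The 250 bases in front of a RefSeq transcript start (GRCm38.p6) are shown for the genes that varied most, Saa3, Lcn2 and Ptx3, and for Saa1, a liver form that stayed at background. Capitals mark the match to the C/EBP motif TTGCNNAA, on either strand. The windows are chr7:46715677-46715926 on the minus strand for Saa3, chr2:32387740-32387989 on the minus strand for Lcn2, chr3:66219637-66219886 on the plus strand for Ptx3 and chr7:46742981-46743230 on the minus strand for Saa1.
Saa3: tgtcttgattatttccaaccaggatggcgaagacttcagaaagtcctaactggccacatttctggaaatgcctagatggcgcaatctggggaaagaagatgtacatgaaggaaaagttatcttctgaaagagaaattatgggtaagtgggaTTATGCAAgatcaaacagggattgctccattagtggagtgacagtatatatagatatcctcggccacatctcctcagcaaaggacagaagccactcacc
Lcn2: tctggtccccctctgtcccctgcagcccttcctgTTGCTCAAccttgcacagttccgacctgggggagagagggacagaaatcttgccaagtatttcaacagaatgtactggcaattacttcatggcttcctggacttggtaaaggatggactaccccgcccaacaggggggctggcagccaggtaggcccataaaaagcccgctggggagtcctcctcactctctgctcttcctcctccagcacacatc
Ptx3: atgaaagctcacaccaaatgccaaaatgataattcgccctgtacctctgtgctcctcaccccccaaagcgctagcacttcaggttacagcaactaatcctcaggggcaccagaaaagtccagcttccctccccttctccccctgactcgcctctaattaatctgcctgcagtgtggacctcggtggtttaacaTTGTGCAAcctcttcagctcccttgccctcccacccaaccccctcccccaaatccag
Saa1: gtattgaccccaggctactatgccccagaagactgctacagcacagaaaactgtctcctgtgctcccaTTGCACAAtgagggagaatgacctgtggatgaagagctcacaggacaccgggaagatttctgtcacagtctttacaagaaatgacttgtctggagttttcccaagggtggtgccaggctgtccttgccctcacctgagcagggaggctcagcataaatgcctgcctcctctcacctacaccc
Each window held 1 C/EBP match, at −99 to −92 in Saa3, −216 to −209 in Lcn2, −57 to −50 in Ptx3 and −182 to −175 in Saa1, counted from the base before the start. Saa2 had 1 as well, at −183 to −176, and its window was 94.8% identical to that of Saa1, against 52.5% between Saa1 and Saa3. Of 32851 RefSeq windows of this length, 9.56% held the motif. The NF-kB consensus (7.25% of windows), the STAT motif TTCNNNGAA (7.02%) and the TATA motif TATAAA (12.4%), searched on both strands, had no match in these 5 windows, which says only that those letters are not there. The windows of Saa1 and Saa2, at background, and of Saa3, Lcn2 and Ptx3 thus held the same number of matches to each of the 4 motifs. Cp, which also varied, has 2 windows, 1 with no match and 1 with a C/EBP match and 2 TATA matches that overlap, on opposite strands. Windows of Hp, Orm1 and Cfb were not analysed here.

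All 12 fibroblast markers, such as Col1a1, Col1a2, Col3a1 and Pdgfra, were above background in every culture. The background level of an array was taken as the 95th percentile of its 1035 probe sets of olfactory receptor genes, and lay between 4.93 and 5.09. Tert read 4.99, 4.83 and 4.75 in mTERT KO cultures 1 to 3, against 5.72, 5.74 and 5.51 in mTERT WT cultures. Terc was at background in all 12 cultures, so it gave no check of the mTR labels. In the mTERT line, cultures of the same number deviated together from their group means over the 14427 brighter probe sets, with Pearson correlations of 0.674, 0.733 and 0.790. In the mTR line these correlations were −0.156, 0.289 and −0.377, so cultures of the same number were not taken as pairs there. The labels do not say whether a number marks a litter.

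Saa3, the serum amyloid A form made outside the liver, was high in both mTERT cultures of number 2 and low in the other 10. It read 5.50, 8.83 and 5.26 in mTERT KO cultures 1 to 3, against 5.07, 9.13 and 5.70 in mTERT WT cultures 1 to 3. The number 2 pair had a mean of 8.98, 12.1 times the mean of the other 4 mTERT cultures (5.38). Of those, mTERT WT 1 and mTERT KO 3 lay close to their background levels of 5.05 and 5.04, so the fold is best read as a lower bound. Across the mTR line Saa3 read 5.76, 5.72 and 5.20 in mTR KO cultures 1 to 3, against 5.13, 6.25 and 5.43 in mTR WT cultures 1 to 3. No mTR culture came near the number 2 pair of the mTERT line, and all 12 cultures lay above the background level. The liver forms did not share this: Saa1 stayed between 3.62 and 3.98 and Saa2 between 4.52 and 4.91, at background in every culture. Saa1, Saa2 and Saa3 are neighbours in the genome, as is Saa4, which read at most 4.08.

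**Figure D1:**
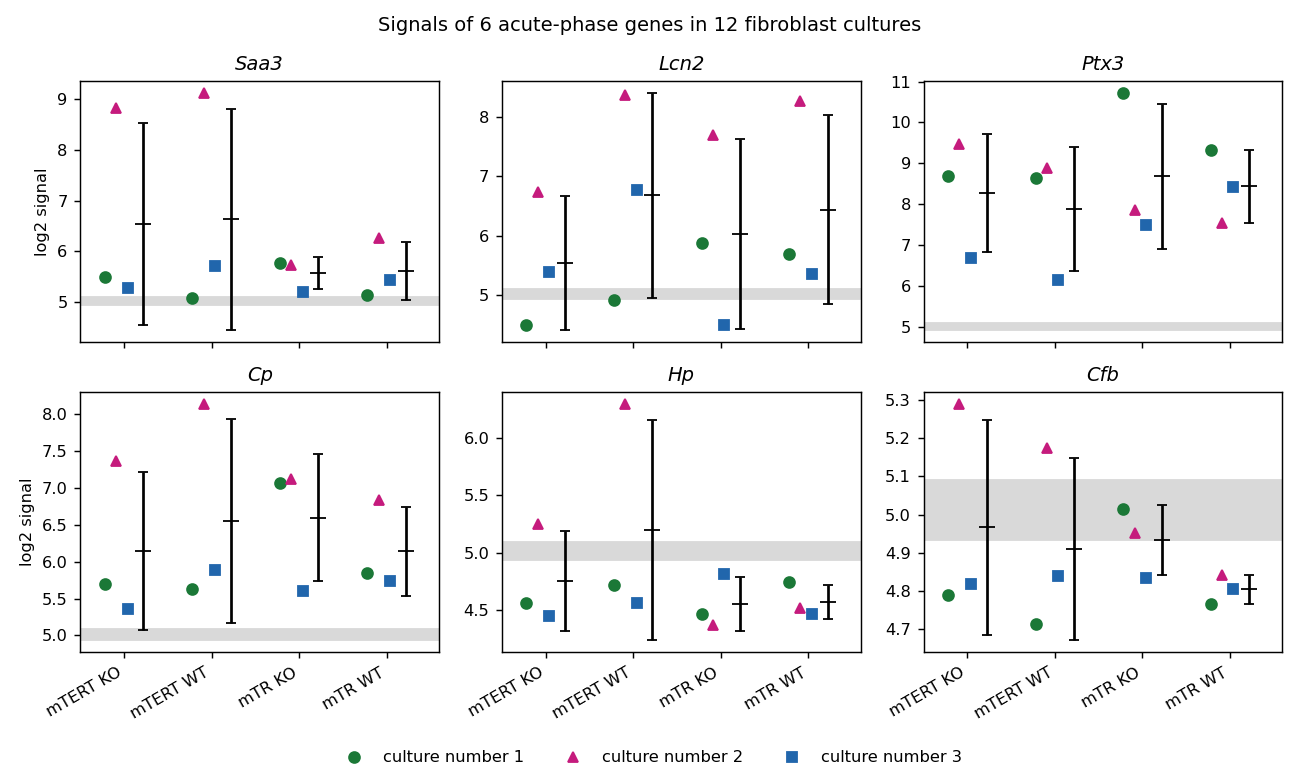
Log2 signals (vertical axes, each with its own range) of Saa3, Lcn2, Ptx3, Cp, Hp and Cfb in the 3 cultures of each group, with symbols for the culture number, the group mean ± SD in black and the range of background levels over the arrays as a grey band. Saa3, Cp, Hp and Cfb are highest in the number 2 cultures of the mTERT line, Lcn2 is high in number 2 cultures of both lines, and Ptx3 is lowest in the number 3 cultures of the mTERT line.

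Lcn2, the siderophore-binding lipocalin, was high in number 2 cultures of both lines. In the mTERT line it read 4.49, 6.73 and 5.39 in KO cultures 1 to 3, against 4.91, 8.36 and 6.76 in WT cultures 1 to 3. Within each number it was lower in the knockout, by differences of −0.42, −1.63 and −1.37, yet the groups overlapped, and mTERT WT 3 lay just above mTERT KO 2. Among mTR cultures Lcn2 read 5.88, 7.69 and 4.49 in KO cultures 1 to 3, against 5.68, 8.27 and 5.36 in WT cultures 1 to 3. The mTR cultures of number 2 averaged 6.18 times the other 4 of their line, and the mTERT cultures of number 2 averaged 4.46 times theirs. Both folds are of measured signals and can be read only as lower bounds, because some of the lower cultures were not above background. In 9 of 12 cultures Lcn2 was above background; mTERT KO 1, mTERT WT 1 and mTR KO 3 were not.

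Ptx3, the long pentraxin, had the widest range of the 9 genes and another order of cultures. It read 8.69, 9.47 and 6.68 in mTERT KO cultures 1 to 3, against 8.65, 8.88 and 6.14 in mTERT WT cultures 1 to 3. Both number 3 cultures were the low ones there, at 0.175 times the mean of the other 4. In the mTR line Ptx3 read 10.72, 7.85 and 7.48 in KO cultures 1 to 3, against 9.33, 7.53 and 8.43 in WT cultures 1 to 3. Number 1 was high in both genotypes of the mTR line, and mTR KO 1 was the highest of all 12, at 24.0 times mTERT WT 3.

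Cp, Hp and Cfb, with roles in metal transport, haemoglobin clearance and complement, shared the high number 2 cultures of the mTERT line. Cp, the copper-carrying ferroxidase ceruloplasmin, read 5.71, 7.36 and 5.37 in mTERT KO cultures, against 5.63, 8.15 and 5.89 in mTERT WT cultures. It also read 7.07, 7.13 and 5.61 in mTR KO cultures, against 5.84, 6.84 and 5.74 in mTR WT cultures, so mTR KO 1 was high beside both mTR cultures of number 2. Hp, the haemoglobin-binding haptoglobin, passed the background level in mTERT KO 2 (5.25) and mTERT WT 2 (6.29) and in none of the other 10, which lay between 4.37 and 4.82. Cfb, the protease of the alternative complement pathway, read 5.29 in mTERT KO 2 and 5.18 in mTERT WT 2, against at most 4.84 in the other 4 mTERT cultures. The Cfb signal passed background in 3 cultures only, these 2 and mTR KO 1 (5.01), and its 12 values lay within 0.58 of each other. Orm1, the plasma carrier alpha-1-acid glycoprotein, stayed between 4.31 and 4.64, at background throughout.

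In the mTERT line 6 of the 9 genes had both number 2 cultures above the other 4, against 7.71% of all probe sets. These were Saa3, Ptx3, Cp, Hp, Cfb and Saa2, the last within background. In that line number 1 had 0 genes with both cultures above the other 4 (background share 11.8%) and 2, Lcn2 and Cfb, with both below (8.82%), and number 3 had 0 above (14.8%) and Ptx3 below (12.8%). Across the mTR line number 1 had Ptx3 above (7.32%) and 0 genes below (7.76%), number 2 had Lcn2 and Saa1 above (6.12%) and 0 below (5.60%), and number 3 had Saa2 above (6.10%) and Lcn2 and Cp below (4.45%). Since the genes were listed for their spread between cultures, these counts describe where the spread lay and nothing more is read from them.

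The pooled SD between cultures of a group was 1.53 for Lcn2, 1.52 for Saa3 and 1.44 for Ptx3, ranks 5, 7 and 10 of 28853 probe sets. Cp (1.02) ranked 73, Hp (0.54) ranked 596 and Cfb (0.19) ranked 5011, while the median probe set had 0.12 and the 95th percentile was 0.37. Cxcl5, a neutrophil-attracting chemokine (1.94), Mmp3, a matrix metalloprotease (1.72), Egfl6 and Agtr2 ranked above Lcn2. Ifit1 lay between Lcn2 and Saa3, and Lum and Sftpc lay between Saa3 and Ptx3. Without the number 2 cultures of the mTERT line the SD was 0.43 for Saa3, 0.17 for Hp, 0.068 for Cfb and 0.62 for Cp, but 1.44 for Lcn2 and 1.48 for Ptx3.

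**Figure D2:**
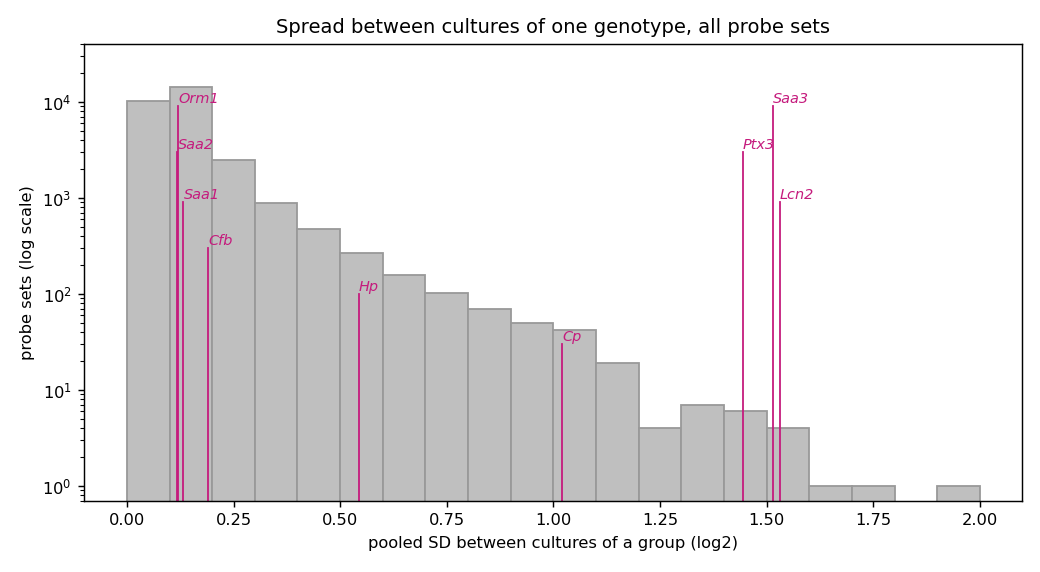
Number of probe sets (vertical axis, log scale) by pooled SD between cultures of a group in log2 units (horizontal axis), with the 9 acute-phase genes as lines whose heights have no meaning. Saa3, Lcn2 and Ptx3 lie in the far tail at 1.44 to 1.53, Cp at 1.02, and Saa1, Saa2 and Orm1 near the median of 0.12.

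For the 6 genes that passed background in some culture, most of the variation in the mTERT line went with the culture number. Number accounted for 98.7% of the sum of squares of Saa3 there, 96.5% of Cfb, 96.4% of Ptx3, 93.0% of Cp, 77.5% of Lcn2 and 77.4% of Hp, where the median over all probe sets was 55.6%. Saa1 (45.9%), Saa2 (46.5%) and Orm1 (43.3%), at background, lay below that median. Genotype accounted for 0.090% of Saa3 and 18.7% of Lcn2, where that median was 7.53%. Saa3, Lcn2 and Ptx3 were listed for spread between cultures of one genotype, which by itself lowers the genotype share. The shares therefore only describe where the spread lay. Among mTR cultures number accounted for 94.7% of Lcn2, 81.7% of Ptx3, 68.3% of Cp and 57.9% of Saa3, against 29.2% of Hp and 16.2% of Cfb, where the median was 36.2%. Genotype accounted there for 55.8% of Cfb, which was above background in mTR KO 1 alone of that line. It accounted for 12.6% of Cp, 2.44% of Lcn2, 1.19% of Ptx3, 0.55% of Hp and 0.34% of Saa3, where the median was 14.7%.

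No acute-phase gene passed the test of either knockout against its wild type (limma over all probe sets, Benjamini-Hochberg, 5% false discovery rate). The spread that Saa3, Lcn2 and Ptx3 were listed for is also the yardstick of the unpaired tests here and below. For these genes the lack of a call, the overlap of groups and the wide intervals thus follow largely from that choice. Over all probe sets 0.00347% passed in mTERT KO against mTERT WT cultures and 0% in mTR KO against mTR WT cultures. At an unadjusted p below 0.05 there were 0 of the 9 genes in each, where all probe sets had 1.92% and 5.82%. For none of the 9 were the groups free of overlap, where 5.97% and 11.4% of all probe sets were. In the mTERT comparison 4 of the 9 genes were higher and 5 lower, with a median difference of −0.08, where 50.6% of all probe sets were higher and 49.4% lower. In the mTR comparison 6 were higher and 3 lower, with a median of 0.05, where 50.3% of all probe sets were higher and 49.7% lower, with a median of 9e-04.

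Saa3 averaged 6.53 ± 1.99 in mTERT KO and 6.63 ± 2.19 in mTERT WT cultures (SD, n = 3 each), a difference of −0.10 ± 1.05 (standard error, 95% interval −2.41 to 2.21; limma, adjusted p = 1). Lcn2 averaged 5.54 ± 1.13 in mTERT KO and 6.68 ± 1.73 in mTERT WT cultures, a difference of −1.14 ± 1.06 (−3.47 to 1.19). The Ptx3 difference was 0.39 ± 1.00 (−1.81 to 2.59), with means of 8.28 ± 1.44 in mTERT KO and 7.89 ± 1.52 in mTERT WT cultures. The Saa3 interval of this fit, which does not take same-numbered mTERT cultures as pairs, reaches past 2 log2 units in both directions. Cp differed by −0.41 ± 0.71, Hp by −0.44 ± 0.38 and Cfb by 0.06 ± 0.14, each with an adjusted p of 1.

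In the mTR line Saa3 averaged 5.56 ± 0.32 in KO and 5.61 ± 0.58 in WT cultures, a difference of −0.04 ± 1.05 (−2.35 to 2.26; limma, adjusted p = 0.998). Lcn2 averaged 6.02 ± 1.61 in mTR KO and 6.43 ± 1.60 in mTR WT cultures and differed by −0.41 ± 1.06 (−2.74 to 1.92; adjusted p = 0.956). Ptx3 averaged 8.69 ± 1.77 in mTR KO and 8.43 ± 0.90 in mTR WT cultures and differed by 0.25 ± 1.00 (−1.95 to 2.45; adjusted p = 0.976). The fit shares 1 estimate of the spread over all groups, so the wide interval of Saa3 in the mTR line carries the spread of the mTERT cultures. Cp differed by 0.46 ± 0.71, Cfb by 0.13 ± 0.14 and Hp by −0.02 ± 0.38.

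**Figure D3:**
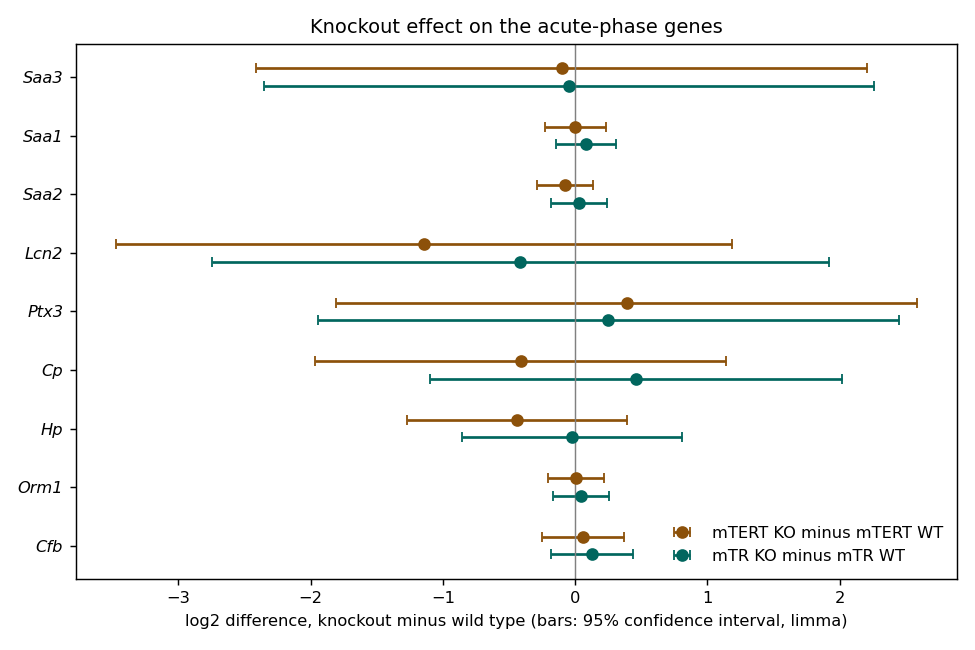
Log2 difference of knockout minus wild type (horizontal axis) with its 95% confidence interval from the limma fit, for the 9 genes (rows), mTERT line above mTR line in each row. Every interval holds 0, and those of Saa3, Lcn2 and Ptx3 span more than 4 log2 units.

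Same-numbered mTERT cultures were taken as pairs because they deviated together on these arrays, while the labels state no pairing. On that basis a paired fit of the 6 mTERT arrays alone was added after the data were seen. It called 0 probe sets at a 5% false discovery rate. Lcn2 differed by −1.14 ± 0.20 between mTERT KO and mTERT WT cultures in it (95% interval −1.61 to −0.67; limma, unadjusted p = 0.000634, adjusted p = 0.301), lower in 3 of 3 pairs, of which pair 1 was below background in both cultures and so carries no signal. Ptx3 differed by 0.39 ± 0.11 (adjusted p = 0.726), higher in 3 of 3 pairs, Cp by −0.41 ± 0.15 (0.836) and Hp by −0.44 ± 0.17 (0.876). These 4 of the 9 genes had an unadjusted p below 0.05, where 5.56% of all probe sets did, and Hp was above background in pair 2 alone. Number accounted for 77.4% to 96.4% of the mTERT sum of squares of these 4, so taking it out narrows their intervals. Lcn2 and Ptx3 were listed for spread between cultures, so their smaller standard errors follow in part from that choice. Deviations of Lcn2 and Cp correlated at 0.84 over the 12 cultures, so the 4 are not read as separate results. Saa3 differed by −0.10 ± 0.15 (−0.46 to 0.26), while its differences in pairs 1 to 3 were 0.43, −0.30 and −0.43. The standard error of this fit is moderated over all probe sets, so the interval is not read as excluding a change of a given size. Taken over all 12 arrays with the mTERT pairs as a replicate block, 1 of the 9 genes had an unadjusted p below 0.05 and 0 passed.

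Both knockout effects together gave a mean difference of −0.78 ± 0.75 for Lcn2, −0.07 ± 0.74 for Saa3 and 0.32 ± 0.71 for Ptx3, and 0 of the 9 genes passed or had an unadjusted p below 0.05 in limma (0% and 4.09% of all probe sets). Of the 9 genes 5 were higher and 4 lower, where 50.4% and 49.6% of all probe sets were, and 0 were free of overlap (0.152%). The mTERT effect minus the mTR effect was −0.73 ± 1.50 for Lcn2, −0.06 ± 1.48 for Saa3 and 0.14 ± 1.41 for Ptx3, again with 0 genes passing or at an unadjusted p below 0.05 (0% and 3.34%). That difference was above 0 for 1 gene and below 0 for 8, where 50.9% and 49.1% of all probe sets were. Between the wild types, mTERT WT minus mTR WT, Saa3 differed by 1.03 ± 1.05, Hp by 0.62 ± 0.38 and Ptx3 by −0.55 ± 1.00. There 8 of the 9 genes were higher in mTERT WT cultures and 1 lower (52.2% and 47.8% of all probe sets), 0 were free of overlap (13.1%), and 0 passed or had an unadjusted p below 0.05 (0.0173% and 6.78% of all probe sets).

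Other acute-phase proteins went partly with these genes. Of 21 measured, 4 had both mTERT cultures of number 2 above the other 4 of the line, and 3 had both below (7.71% and 12.8% of all probe sets). The 4 above were Serpina3n, Steap4, Lbp and Il1rn. Steap4, a metalloreductase, read 4.79, 6.35 and 4.58 in mTERT KO cultures 1 to 3, against 4.84, 6.95 and 4.77 in mTERT WT cultures, and at most 5.12 in the mTR line. Serpina3n, a secreted serine protease inhibitor, followed Lcn2 rather than Saa3. It read 5.28, 6.20 and 5.26 in mTERT KO cultures, against 5.00, 7.67 and 6.19 in mTERT WT cultures. Across the mTR line Serpina3n read 5.97, 7.23 and 4.97 in KO cultures, against 5.45, 7.70 and 5.67 in WT cultures. Number 2 was thus highest in both lines, but mTERT KO 2 lay only just above mTERT WT 3. Among mTR cultures 5 of the 21 had both number 2 cultures above the other 4 (6.12% of all probe sets), among them Serpina3n and A2m, the protease inhibitor alpha-2-macroglobulin. Hpx, Saa4 and Orm2 varied by less than 0.4 over the 12 cultures. None of the 21 passed in either knockout comparison, with medians of −0.06 in mTERT and 0.07 in mTR. In each, 1 had an unadjusted p below 0.05 in limma, where 1.92% and 5.82% of all probe sets did.

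Among the inducing cytokines and their receptors, 10 of 21 had both number 2 cultures of the mTERT line above the other 4, and 0 had both below (7.71% and 12.8% of all probe sets). Il6, the cytokine that drives the acute phase, read 4.79, 6.47 and 4.80 in mTERT KO cultures, against 4.93, 7.35 and 4.82 in mTERT WT cultures. The mTR values of Il6 were 5.24, 5.30 and 4.85 in mTR KO cultures, against 4.84, 4.91 and 4.56 in mTR WT cultures. Its highest values were in the same 2 cultures as those of Saa3 and Hp. Il1a and Il1b, the genes of interleukin-1, stayed at or below 4.81 in every culture, within background. Tnf, the gene of tumour necrosis factor, read 5.43, 6.81 and 5.96 in mTERT KO cultures, against 5.70, 6.38 and 6.40 in mTERT WT cultures, so number 2 did not stand apart. None of the 21 passed in either comparison, with medians of −0.01 and 0.14, and 0 and 2 had an unadjusted p below 0.05 in limma (1.92% and 5.82% of all probe sets).

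Transcription factors and feedback regulators of this response had the largest share among the pathway lists. In the mTERT line 12 of 15 had both number 2 cultures above the other 4 (7.71% of all probe sets), and 9 of 15 had both number 3 cultures below (12.8%). Nfkbiz, a nuclear NF-kB cofactor, read 6.87, 7.81 and 6.53 in mTERT KO cultures, against 6.85, 8.02 and 6.71 in mTERT WT cultures. Cebpd, a C/EBP factor, read 5.91, 6.30 and 5.32 in mTERT KO cultures, against 5.62, 6.46 and 5.41 in mTERT WT cultures. Cebpb, another C/EBP factor, read 8.37 in mTERT KO 2 and 8.30 in mTERT WT 2, against at most 7.95 in the other 4 mTERT cultures. Stat3 differed less, between 9.75 and 10.04 over all 12 cultures. Across the mTR line 3 of the 15, Nfkbiz, Nfkbia and Zc3h12a, had both number 2 cultures above the other 4 (6.12% of all probe sets). None passed in either knockout comparison, with 0 at an unadjusted p below 0.05 in limma (1.92% and 5.82% of all probe sets) and medians of −0.01 and 0.05.

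Stromal inflammatory targets are chemokines, adhesion molecules, proteases and other genes that fibroblasts switch on in inflammation, and the list also holds Lcn2 and Il6. They were above the other 4 in both number 2 cultures of the mTERT line for 14 of 20 (7.71% of all probe sets) and below in both number 3 cultures for 9 of 20 (12.8%). Ccl2, a monocyte-attracting chemokine, read 7.79, 9.75 and 6.91 in mTERT KO cultures, against 8.23, 10.05 and 6.90 in mTERT WT cultures. Cxcl5 read 7.53, 9.99 and 4.95 in mTERT KO cultures, against 6.02, 9.39 and 5.12 in mTERT WT cultures. Cxcl1, a related chemokine, read 6.98 in mTERT KO 2 and 6.89 in mTERT WT 2, against at most 5.91 in the other 4 mTERT cultures. The number 2 means were 5.42 times those of the other 4 for Ccl2, at least 13.8 times for Cxcl5, which was not above background in mTERT KO 3, and 8.93 times for Mmp3. Mmp3 was also high in mTR WT 2 (9.48) and mTR KO 1 (8.88). Cxcl5 read 9.31 in mTR KO 1 and 7.92 in mTR KO 2. Ccl2 was also high in mTR KO 1 (9.05) and mTR KO 2 (8.97), where Saa3 was low. None of the 20 passed in either knockout comparison, with medians of −0.05 and 0.10.

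Complement partners of C3 and Cfb were above the other 4 in both number 2 cultures of the mTERT line for 7 of 14 (7.71% of all probe sets), among them C1ra, C1s, Serping1 and C2. C2 passed background only in those 2 cultures, and barely (5.03 in mTERT KO 2 and 4.99 in mTERT WT 2). Cfp (properdin), which stabilises the convertase that Cfb forms, read 7.20, 8.96 and 8.50 in mTERT KO cultures, against 7.41, 8.73 and 8.69 in mTERT WT cultures, while Cfi stayed at or below 4.44. C1s, a protease that starts the classical pathway, read 6.84, 7.49 and 5.19 in mTERT KO cultures, against 6.88, 7.65 and 5.21 in mTERT WT cultures, with number 3 lowest in both as for Ptx3. Receptors of the secreted products showed no such lean, with 2 of 10 above and 3 of 10 below in number 2 (7.71% and 12.8% of all probe sets). Lrp2, an endocytic receptor that takes up lipocalin 2, read between 5.03 and 5.86, and Slc22a17, another lipocalin 2 receptor, between 5.51 and 6.18. Scarb1 and Lrp1, a scavenger and an endocytic receptor, each varied by less than 0.4. None of these 2 lists had a gene that passed in either knockout comparison.

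**Figure D4:**
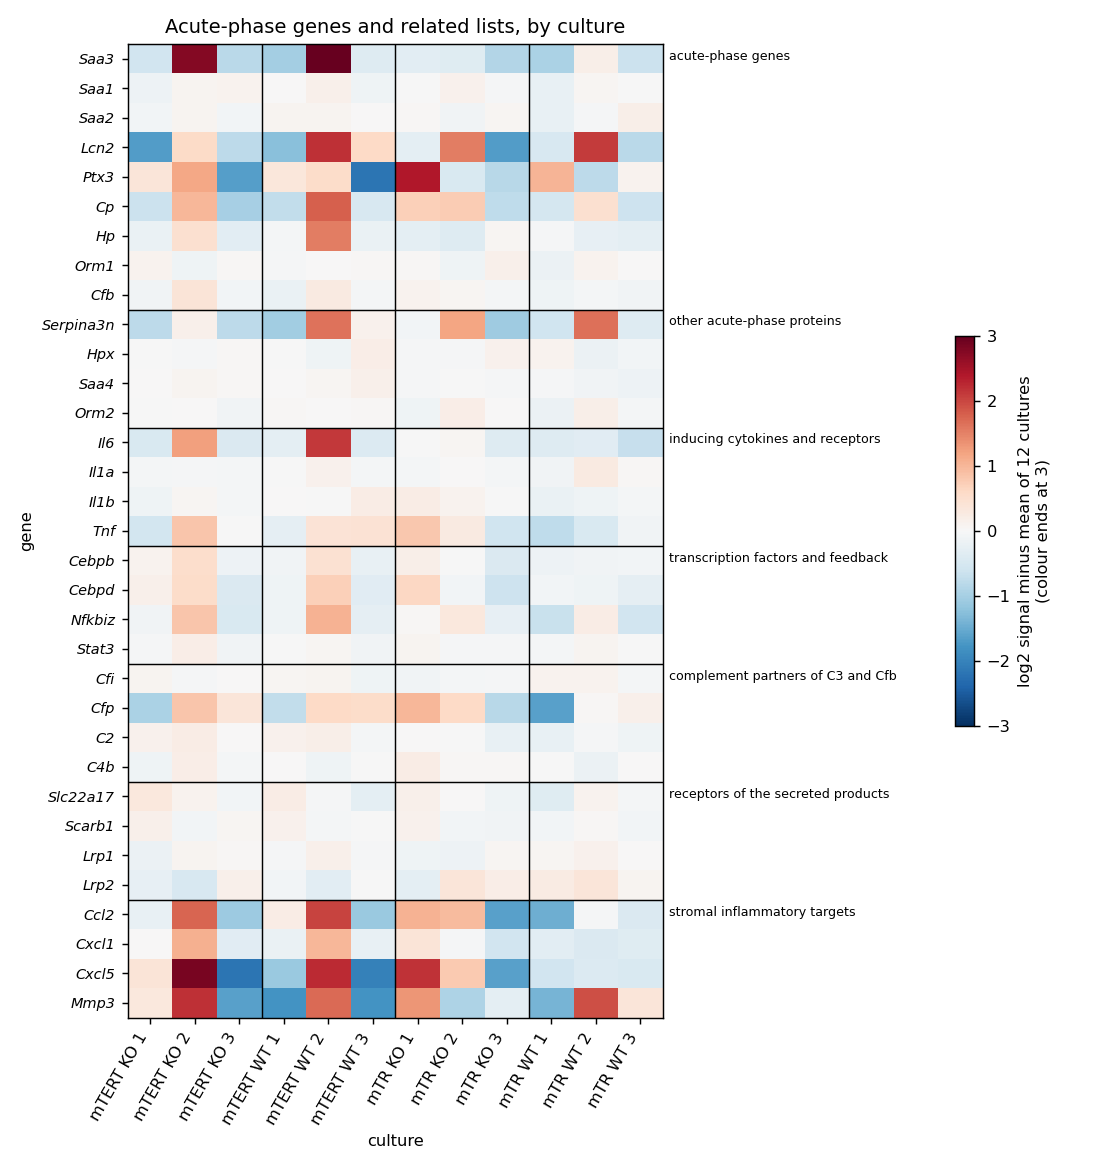
Log2 signal minus the gene's mean over the 12 cultures (colour, ends at 3) for the 9 acute-phase genes and the first 4 measured genes of each related list (rows), by culture (columns, knockout left of wild type in each line). Saa3, Cp, Il6, Ccl2, Cxcl5 and Mmp3 are red in mTERT KO 2 and mTERT WT 2. Hp is red in mTERT WT 2, and Lcn2 and Serpina3n are red in mTERT WT 2, mTR KO 2 and mTR WT 2. In mTERT KO 2 Hp and Lcn2 are only a little above their means, and Serpina3n is near its mean.

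The patterns of the 3 most variable acute-phase genes were set against 15017 genes above background in at least 1 culture, by Pearson correlation of deviations from the group mean over 12 cultures. The points share their arrays, so these values are descriptions. For Saa3 the 6 most alike were Zc3h12a, an RNase that degrades inflammatory transcripts (0.981), Steap4 (0.980), Gdpd2 (0.978), Egln3, a hypoxia-inducible factor hydroxylase (0.976), Cfb (0.971) and Il6 (0.963). Without the number 2 cultures of the mTERT line, over 10 cultures, Gdpd2 stood at 0.972 but Il6 at 0.440 and Steap4 at 0.676. The likeness to Il6 thus rests largely on that pair. Il6 and Steap4 were each above background in only 4 of the 12 cultures, so their values over the 10 have little to rest on. For Lcn2 they were Serpina3n (0.976), Mir31, the gene of a microRNA (0.948), Nrcam, a neural adhesion molecule (0.947), Gnao1, a G protein subunit (0.944), Mlc1 (0.939) and Mt3, a metallothionein (0.920). Each of these 6 was at 0.920 or above over the 10 cultures too.

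For Ptx3 the closest gene was Il6st, the signalling subunit shared by receptors of the interleukin-6 family (0.985, and 0.988 over the 10 cultures). It read 11.38, 11.79 and 10.69 in mTERT KO cultures, against 11.37, 11.59 and 10.67 in mTERT WT cultures. Among mTR cultures Il6st read 11.88, 10.98 and 10.92 in KO cultures, against 11.35, 10.66 and 11.16 in WT cultures. Its range of 1.22 was small beside the 4.59 of Ptx3, with the same cultures at the upper and lower ends in the mTERT line. Nsg1 (0.984), Smarca2, an ATPase of the SWI/SNF remodelling complex (0.980), Fut11 (0.976), Larp6, which binds collagen transcripts (0.973), and Trmt112 (0.968) followed.

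Among themselves the genes fell apart in the same way. Saa3 correlated with Cfb at 0.97, with Cp at 0.93, with Hp at 0.84 and with Lcn2 at 0.72, but with Ptx3 at 0.40, and Lcn2 with Ptx3 at −0.04. Over the 10 cultures without number 2 of the mTERT line, Saa3 with Lcn2 was 0.81, Saa3 with Hp −0.64 and Saa3 with Ptx3 −0.22. Hp lay at background in all 10 of those, so its value there has little to rest on.

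Of 20 macrophage markers, 18 were above background in every culture. Cd163, a scavenger receptor for haptoglobin complexes, was at background in all 12. The mean of the 20 markers ranged from 7.25 to 8.92 in mTERT KO cultures, from 7.53 to 9.06 in mTERT WT cultures, from 7.36 to 9.20 in mTR KO cultures and from 6.55 to 8.45 in mTR WT cultures. In the mTERT line it was 8.92 in KO 2 and 8.73 in WT 2, where Saa3 was 8.83 and 9.13, and 8.74 in KO 3 and 9.06 in WT 3, where Saa3 was 5.26 and 5.70. The marker mean was thus as high in number 3 as in number 2, and Saa3 was not. In mTERT KO 1 and mTERT WT 1, with marker means of 7.25 and 7.53, Lcn2 was at background, while Ptx3 read 8.69 and 8.65. Between genotypes, 19 of 20 markers were lower in mTERT KO than in mTERT WT cultures (median −0.14), where 49.4% of all probe sets were. In the mTR line 20 of 20 were higher in KO than in WT cultures (median 0.72), where 50.3% were. None passed in limma in either line. The markers moved together, with 19 of the 20 below the other 4 mTERT cultures in both of number 1, so these counts are not 20 separate results. Whether macrophages contribute to the signals was not tested. In bulk RNA, fewer cells of a type and less RNA per cell cannot be told apart.

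**Figure D5:**
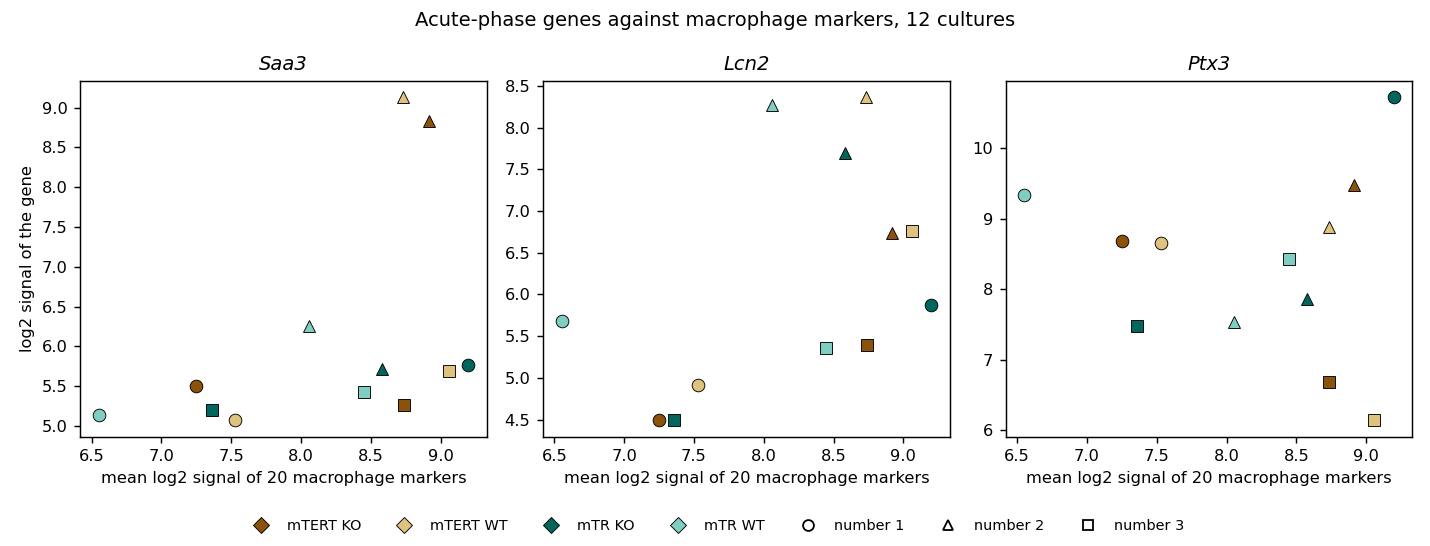
Log2 signal of Saa3, Lcn2 and Ptx3 (vertical axes) against the mean log2 signal of 20 macrophage markers (horizontal axis) in the 12 cultures, coloured by group with symbols for the culture number. Saa3 is at 8.83 and 9.13 in the mTERT cultures of number 2, while mTERT WT 3 and mTR KO 1, with marker means of 9.06 and 9.20, are at 5.70 and 5.76.

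Of 10 neutrophil markers, among them S100a8, S100a9, Ly6g and Mpo, 0 were above background in any culture, although Lcn2 is a granule protein of neutrophils. Of 9 hepatocyte markers 5 passed background in some culture, and Alb, Apoa1 and Apoa2 did so in all 12, while Afp did in none. Their mean lay between 4.84 and 5.13 over the 12 cultures, with Ttr at 6.31 in mTERT KO 3 and 6.00 in mTERT WT 3. Of 8 endothelial markers Pecam1, Cdh5, Kdr and Tek read at most 4.79, and 2, Emcn (up to 5.70) and Cldn5, passed background in 3 cultures each. Of 7 adipocyte markers Fabp4, Pparg and Lpl were above background in all 12 cultures and Adipoq in none. Lpl, a lipoprotein lipase that other cells make too, read 6.56, 7.63 and 5.28 in mTERT KO cultures, against 6.12, 7.25 and 5.78 in mTERT WT cultures. It reached 7.91 in mTR KO 1. Only Lpl of the 7 adipocyte markers had both mTERT cultures of number 2 above the other 4, as Saa3 did. Another 1 of the 7, at background, had both below (7.71% and 12.8% of all probe sets). Of 8 epithelial markers 6 passed background in some culture, and Krt8, Krt19 and Cldn4 in all 12. In the mTERT line 6 of the 8 had both number 3 cultures above the other 4, where 14.8% of all probe sets did, and their mean was 5.41 in mTERT KO 3 and 5.48 in mTERT WT 3, against at most 5.22 in the other 4 mTERT cultures. Among fibroblast markers Pdgfra was low where Ptx3 was low in the mTERT line. It read 9.44, 9.43 and 6.21 in mTERT KO cultures, against 9.01, 8.83 and 6.30 in mTERT WT cultures. The fibroblast marker mean was 10.6 in mTERT KO 3 and 10.5 in mTERT WT 3, against at least 11.1 in the other 4 mTERT cultures. The 12 markers did not all go this way. Both number 3 cultures lay below the other 4 for 6 of them (12.8% of all probe sets), and above for 2, Vim and Fn1 (14.8%). What part these lists have in the Saa3, Lcn2 and Ptx3 signals was not tested.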

How the data were processed

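The 12 arrays came as deposited log2 values for 28853 probe sets. Column quantiles differed by at most 0.0844 between arrays. GCOS 1.4, PLIER and Affymetrix Expression Console are named, without a role, per the submitters' processing notes. Scaling method and build are not given in the sources used here. In the platform annotation 1 symbol stood beside 21789 probe sets, several beside 1621 and no symbol beside 5443.

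Groups followed the labels. A model with 1 mean per group used every array (limma 3.58.1, R 4.3.3, 8 residual and 3.14 prior degrees of freedom), adjusted with Benjamini-Hochberg over all probe sets at 5%, after a check on simulated data. The acute-phase genes, related lists and tests were chosen with earlier results of these data known. Named were all 9 genes, the first 4 measured genes of each pathway list (cell type lists likewise, given mostly as list means), the 6 genes most alike each of Saa3, Lcn2 and Ptx3, the 10 most variable genes, Tert and Terc. Other list genes named (Steap4, Lbp, Il1rn, A2m, Nfkbia, Zc3h12a, C1ra, C1s, Serping1, Cd163, Lpl, Apoa2, Emcn, Cldn5, Krt19, Cldn4, Vim and Fn1) were chosen after their values were seen. Same-numbered mTERT cultures were taken as pairs, since each pair's correlation passed 0.1 and the design has littermate sets. Alternatives changed normalization, filter, variance, weights, pairing and arrays. The number of arrays limits precision. Figures used matplotlib 3.10.9 in Python 3.11.15.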

Additional observations from a re-analysis of the deposited data

How the results depend on the processing

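The count of acute-phase genes that passed was 0 in each comparison that an alternative could be run for. The alternatives were quantile normalization, median centring, a filter on dim probe sets, eBayes with trend and robust settings, weights per array, fits without the other groups' arrays, 3 forms of replicate block, the mean over probe sets, and each array left out. Fits without the other groups' arrays gave 3 of the 5 comparisons and each fixed block 4. The count was also 0 under 2 alternatives chosen after seeing the data, a paired fit of the mTERT cultures (mTERT KO minus mTERT WT only) and the omission of both mTERT cultures of number 2. With the mTERT pairs as a replicate block the Lcn2 difference was −1.14 (limma, adjusted p = 1), and in the paired fit alone its adjusted p of 0.301 was the smallest. The mTR numbers were run as a block with the mTERT numbers, without a change in any call (Lcn2, adjusted p = 0.676). Directions of several differences depended on single cultures. With array weights the mTR differences turned to 0.073 for Saa3, 0.56 for Lcn2 and −0.31 for Ptx3, and the cause was not tested. With 1 array left out the mTERT difference ran from −1.25 to 1.15 for Saa3, −0.49 to 1.19 for Ptx3, −0.75 to 0.11 for Hp, −0.10 to 0.19 for Cfb and −1.02 to 0.38 for Cp, with fewer samples in the fit. In the mTR line it ran from −0.28 to 0.28 for Saa3, −1.25 to 0.50 for Lcn2, −0.77 to 0.85 for Ptx3 and −0.16 to 0.067 for Hp. No array turned the mTERT difference of Lcn2 (−2.03 to −0.30) or the mTR differences of Cfb (0.088 to 0.18) and Cp (0.20 to 0.96). Hp could not be tested under the dim filter, each gene had 1 probe set, and r with C3 could not be computed.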
